A study of Mus musculus with 8 samples.

Results

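Complement and coagulation are cascades of plasma proteins, most of which the liver makes and secretes. The 49 genes described here were chosen by gene symbol from the 22564 genes of the deposited mRNA table: 21 genes of complement and 28 of coagulation and fibrinolysis. Of these, 48 had a mean of at least 0.5 FPKM over all mice (fragments per kilobase of transcript in a library of standard size, a level that is already per length), namely 20 complement genes and all 28 of coagulation and fibrinolysis. The complement gene below that level was C5ar1, the receptor of the peptide C5a, with 0.304, 0.270, 0.191 and 0.164 FPKM in HFrD mice and 0.344, 0.406, 0.149 and 0.0488 FPKM in ND mice.

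Livers of 4 male C57BL/6J mice on a high fructose diet (HFrD, mice 1, 2, 5 and 7) were compared with livers of 4 on a normal diet (ND, mice 1, 3, 6 and 7) by RNA-Seq, to ask which mRNAs fructose feeding altered. All mice were 10 to 11 weeks old at purchase, and the diets lasted 2 weeks. The HFrD supplied 10% of its energy as fat, 70% as carbohydrate and 20% as protein, and the composition of the ND is not given in the sources used here. Each library came from 1 mouse, so that p values measure the spread between these mice. Values of single mice are given below in the order HFrD mice 1, 2, 5 and 7 and ND mice 1, 3, 6 and 7.

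In complement, C1q or mannose-binding lectin starts proteases that cut C4 and C2, the resulting convertase cuts C3, and the alternative pathway of factor B, factor D and properdin amplifies this step. The convertases then cut C5, and C5b, C6, C7, C8 and C9 assemble into the membrane attack complex. In coagulation, tissue factor with factor VII, or the contact system of factor XII, plasma kallikrein, kininogen and factor XI, leads through factors IX and X to thrombin, which turns fibrinogen into fibrin. Plasmin dissolves fibrin, and serpins, protein C and protein S hold thrombin and its partners in check.

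All libraries carried high levels of hepatocyte mRNA, with a summed level of 12 hepatocyte markers of 60800 to 68210 FPKM in HFrD mice and 51080 to 61440 FPKM in ND mice. Much of these sums was Alb alone, at 30310 to 37170 FPKM in HFrD mice and 24270 to 32720 FPKM in ND mice. By log2 fold change 6 of the 12 markers were positive and 6 negative, and 3 (Ttr, Trf and Hpx) were called higher in HFrD mice. Ttr and Trf kept the call in only 1 of 8 fits that each left out 1 mouse, that without HFrD mouse 1 (largest limma adjusted p 0.0833 and 0.0810, without ND mouse 3). Sequencing depth relative to ND mouse 1, estimated from the steps of low values, was 1.13 to 1.49 in HFrD mice and 0.991 to 1.18 in ND mice. Of 12 Kupffer cell markers, 10 were higher in HFrD mice, with sums of 201 to 294 FPKM in HFrD mice and 96.7 to 154 FPKM in ND mice. Among these, Emr1, Vsig4 and Csf1r lost the call in 2, 6 and 5 of the 8 fits. Of 10 sinusoidal endothelial markers, 3 were higher, with sums of 133 to 149 FPKM in HFrD mice and 101 to 129 FPKM in ND mice, and Cdh5 lost the call in 3 of 8 fits. None of the 8 stellate cell, 5 monocyte and neutrophil, 3 platelet and 3 cholangiocyte markers above the level filter passed the test, and Ly6g of neutrophils and Treml1 of platelets were at 0 in every library. In bulk tissue, fewer cells of a type and less RNA per cell cannot be told apart.

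In limma's moderated test on log2(FPKM + 1), with p values adjusted by Benjamini and Hochberg over 11476 genes, 11 of the 48 members changed at an adjusted p under 0.05. Of these, 3 were higher in HFrD mice (C4b, Cfp and F12) and 8 were lower (C2, C9, C8b, Hc, F11, Klkb1, F13b and Serpind1). The share of members that changed was 22.9%, against 9.12% of all genes tested. By direction, 5.44% of all genes were higher and 3.69% lower. In complement 2 genes rose and 4 fell among 20, and in coagulation and fibrinolysis 1 rose and 4 fell among 28. The median log2 fold change was -0.04 for complement and 0.07 for coagulation and fibrinolysis, against 0.01 for all genes. At an unadjusted p under 0.05 there were 10 complement and 11 coagulation genes, and 25.5% of all genes.

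**Figure D1:**
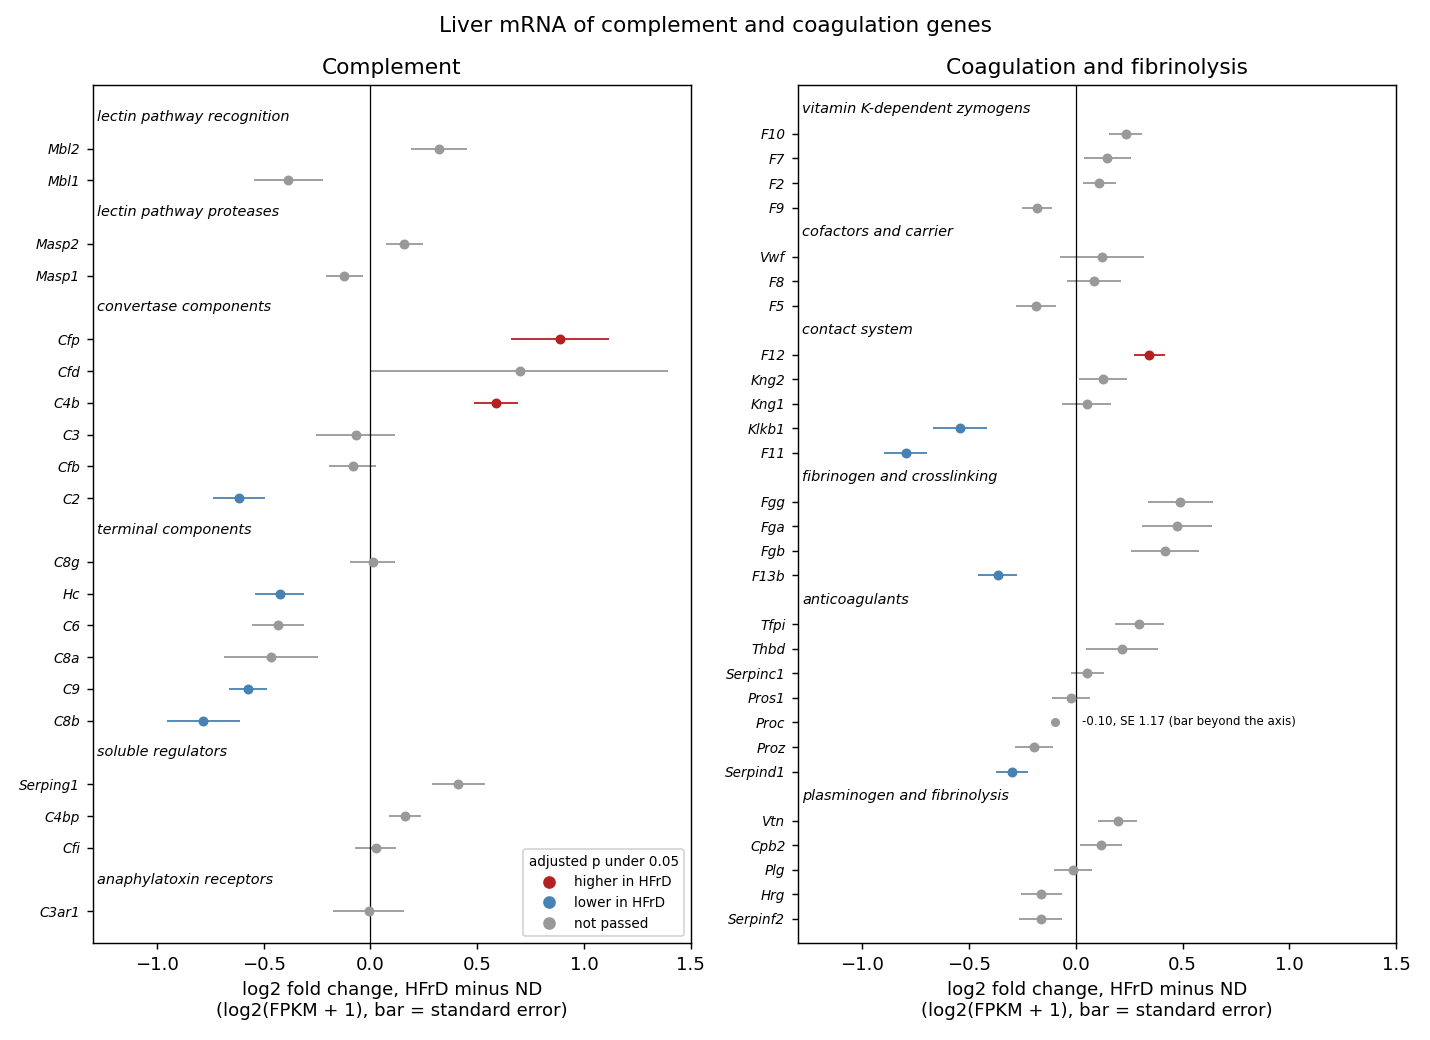
Log2 fold change, HFrD minus ND, of the 48 members above the level filter, by role (x axis, log2(FPKM + 1) scale; y axis, genes). Points are limma estimates and bars standard errors, with red for higher and blue for lower at an adjusted p under 0.05. C4b, Cfp and F12 stand to the right of 0, while C2, C9, C8b, Hc, F11, Klkb1, F13b and Serpind1 stand to the left.

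The sequence before a gene's start is shown for the 3 fibrinogen genes, whose levels moved together from mouse to mouse, and for C9 and F11, which fell with the smallest adjusted p of their lists. Each stretch runs from 250 bases before to 50 bases after the RefSeq start in GRCm38.p6, 5′ to 3′ on the strand of the gene. Capitals mark matches, on either strand, to a GAS element bound by STAT factors (TTCNNNGAA), a C/EBP site (TTGCNNAAT) or the first 9 bases of an HNF1 site (GTTAATNAT), factors known in liver gene expression.
Fgg (chr3:83007474-83007773, plus strand): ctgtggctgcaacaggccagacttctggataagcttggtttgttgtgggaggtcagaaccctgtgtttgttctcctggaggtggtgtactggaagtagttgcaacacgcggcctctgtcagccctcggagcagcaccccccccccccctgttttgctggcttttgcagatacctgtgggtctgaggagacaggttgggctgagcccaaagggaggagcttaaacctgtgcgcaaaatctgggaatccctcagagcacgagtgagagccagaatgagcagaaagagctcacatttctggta
Fga (chr3:83025903-83026202, plus strand): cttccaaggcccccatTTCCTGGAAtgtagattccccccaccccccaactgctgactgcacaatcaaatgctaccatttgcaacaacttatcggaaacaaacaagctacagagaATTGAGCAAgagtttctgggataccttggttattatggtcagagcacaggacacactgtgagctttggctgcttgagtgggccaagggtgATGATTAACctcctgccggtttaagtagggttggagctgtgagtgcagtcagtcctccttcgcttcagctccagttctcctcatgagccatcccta
Fgb (chr3:83049814-83050113, minus strand): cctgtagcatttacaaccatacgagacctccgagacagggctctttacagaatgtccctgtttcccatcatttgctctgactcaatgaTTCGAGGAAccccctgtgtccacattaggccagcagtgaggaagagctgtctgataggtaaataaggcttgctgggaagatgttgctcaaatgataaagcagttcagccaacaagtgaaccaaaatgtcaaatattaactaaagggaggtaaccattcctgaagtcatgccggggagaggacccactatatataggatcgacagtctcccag
C9 (chr15:6445096-6445395, plus strand): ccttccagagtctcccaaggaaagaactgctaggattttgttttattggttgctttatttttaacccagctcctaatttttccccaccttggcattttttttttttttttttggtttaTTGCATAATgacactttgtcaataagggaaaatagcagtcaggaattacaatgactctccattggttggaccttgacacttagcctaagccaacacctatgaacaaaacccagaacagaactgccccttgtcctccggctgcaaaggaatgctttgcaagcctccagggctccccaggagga
F11 (chr8:45261982-45262281, minus strand): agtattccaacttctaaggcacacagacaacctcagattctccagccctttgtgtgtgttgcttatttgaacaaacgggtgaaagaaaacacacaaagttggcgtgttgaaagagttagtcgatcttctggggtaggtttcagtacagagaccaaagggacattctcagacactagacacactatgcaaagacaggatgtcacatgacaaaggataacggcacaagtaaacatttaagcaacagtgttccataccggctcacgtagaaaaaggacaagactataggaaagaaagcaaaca

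The Fga stretch held a match to each of the 3 motifs, the first base of each lying at -234 (GAS), -136 (C/EBP) and -46 (HNF1) from the start. The Fgb stretch held a GAS match at -162, the C9 stretch a C/EBP match at -132, and the Fgg and F11 stretches none. Among the 38 members with such a stretch, a GAS match was found in 7 (C8a, F9, Fga, Fgb, Masp2, Pros1 and Vtn), against 8.30% of the 32851 promoter stretches of all genes. A C/EBP match was found in C3, C9, F9 and Fga, against 2.40% of all stretches, and the 9 bases of HNF1 in C4bp, F13b, Fga and Hc, against 0.801%. The full HNF1 palindrome (GTTAAT, any base, ATTAAC) was found in no member and in 0.00913% of all stretches, and an HNF4 site (CAAAGTCCA) in no member and in 0.475%. The 9-base HNF1 search was added after the palindrome had given no match, and a match describes letters only.

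The lectin pathway starts on mannose-binding lectins, which recognise sugars on microbes, and in mice 2 genes encode them. Mbl1 measured 182, 108, 123 and 162 FPKM in HFrD mice, against 206, 179, 197 and 156 FPKM in ND mice (log2 fold change -0.38, SE 0.16, limma adjusted p = 0.170). Mbl2 measured 259, 221, 196 and 260 FPKM in HFrD mice, against 223, 153, 192 and 181 FPKM in ND mice (0.32, SE 0.13, adjusted p = 0.157). Each gene's groups overlapped and neither passed the test, but the ratio of Mbl1 to Mbl2 within a mouse did not overlap, being 0.487 to 0.700 in HFrD mice and 0.864 to 1.17 in ND mice. This and the other ratios within a mouse given below were chosen after the values were seen and carry no test. Of the proteases that the lectins activate, Masp2 gave 114, 122, 124 and 147 FPKM in HFrD mice, compared with 114, 110, 113 and 114 FPKM in ND mice (log2 fold change 0.16, SE 0.09, adjusted p = 0.291). Masp1 had 42.1 to 51.0 FPKM in HFrD mice and 45.6 to 51.7 FPKM in ND mice (-0.12, SE 0.09, adjusted p = 0.424). Both overlapped between diets.

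The convertase of the classical and lectin pathways is built from fragments of C4 and C2, and its 2 mRNAs moved in opposite directions. C4b (chr17:34728380-34743882), the C4 gene, measured 403, 344, 396 and 400 FPKM in HFrD mice, against 257, 285, 217 and 270 FPKM in ND mice. Every HFrD mouse was above every ND mouse, and the log2 fold change was 0.59 (SE 0.10, limma adjusted p = 0.00858). The HFrD mean was 386 ± 28.1 FPKM and the ND mean 257 ± 29.2 FPKM (SD, n = 4 in each group). C2 (chr17:34862604-34898265), the protease subunit, measured 41.8, 33.8, 31.1 and 30.5 FPKM in HFrD mice, against 56.2, 57.1, 44.2 and 54.2 FPKM in ND mice. Here every HFrD mouse was below every ND mouse (log2 fold change -0.62, SE 0.12, adjusted p = 0.0143). The ratio of C4b to C2 was 9.66 to 13.1 in HFrD mice and 4.57 to 4.99 in ND mice. C4b has a near-identical neighbour, C4a, which has no entry under that symbol in the deposited table and with which it may share reads. In the deposited table C2 shares its locus with Cfb, a read-through transcript and Zbtb12, so that the C2 and Cfb values are uncertain in how reads were divided.

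C3, on which all 3 pathways converge, was among the most abundant members and did not pass the test. Its levels were 1840, 980, 1186 and 1611 FPKM in HFrD mice and 1647, 1422, 1395 and 1278 FPKM in ND mice (log2 fold change -0.07, SE 0.19, limma adjusted p = 0.853). HFrD mouse 1 was above all ND mice and HFrD mice 2 and 5 below all of them, so that the spread within the HFrD group was wider than the difference between diets. Cfb, which encodes the protease of the alternative pathway convertase, had 295 to 410 FPKM in HFrD mice and 340 to 378 FPKM in ND mice (-0.08, SE 0.11, adjusted p = 0.678).

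Properdin, encoded by Cfp (chrX:20925454-20931555), stabilises the alternative pathway convertase and is made mainly by white blood cells. It measured 17.2, 6.20, 9.72 and 9.92 FPKM in HFrD mice, against 5.16, 5.18, 4.53 and 5.20 FPKM in ND mice. The groups did not overlap, although HFrD mouse 2 lay close to the ND mice, and the log2 fold change was 0.89 (SE 0.23, limma adjusted p = 0.0394). In 6 of 8 fits that each left out 1 mouse the call was lost (HFrD mice 5 and 7 and each ND mouse), the largest adjusted p being 0.0917 without ND mouse 6. HFrD mouse 1, the highest in Cfp, also had the highest sums of Kupffer cell markers (294 FPKM) and of monocyte and neutrophil markers (86.5 FPKM), and HFrD mouse 2, the lowest of the HFrD mice in Cfp, had the lowest of both among the HFrD mice (201 and 50.1 FPKM). Most of the monocyte and neutrophil sum was Lyz2 (69.6 FPKM in HFrD mouse 1 and 37.9 FPKM in HFrD mouse 2). Among the HFrD mice, S100a8, Fpr1 and Csf3r were also highest in mouse 1. Ly6c2 and Itgam were instead highest in mouse 2, and Ccr2, S100a9 and Mpo in mouse 7. The part of these cells in the Cfp result was not tested. Cfp shares its locus in the deposited table with 5 other genes, and Cfd, described next, with 45.

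Cfd encodes factor D, the protease that activates factor B, and is known as a product of fat cells. It was at 0.161, 12.1, 0 and 0.394 FPKM in HFrD mice and 0.183, 0.743, 0.479 and 0 FPKM in ND mice, so that only HFrD mouse 2 stood above 1 FPKM (log2 fold change 0.70, SE 0.70, limma adjusted p = 0.573). The sum of 6 adipocyte markers was also highest in that mouse, at 8.26 FPKM. The remaining HFrD mice had sums of 1.87 to 3.53 FPKM and the ND mice sums of 1.88 to 3.29 FPKM. In the ND mice these sums were Adrb3 alone, and the other markers were at 0. Adrb3 was lowest in HFrD mouse 2 (1.39 FPKM). Adipoq (2.83 FPKM), Retn (2.78 FPKM), Plin1 (0.564 FPKM) and Cidea (0.551 FPKM) were highest in that mouse, and Lep in HFrD mouse 7 (0.455 FPKM). The part of fat cells in the Cfd value was not tested. Without HFrD mouse 2 the log2 fold change of Cfd was -0.17.

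Of the 6 terminal components among the members, C9, C8b and Hc fell in HFrD mice, C6 and C8a had lower means without passing the test, and C8g was nearly the same in both groups. C9 (chr15:6445327-6498751), which forms the pore of the attack complex, measured 337, 291, 297 and 309 FPKM in HFrD mice, against 416, 515, 446 and 465 FPKM in ND mice. The groups were well apart, with a log2 fold change of -0.57 (SE 0.09, limma adjusted p = 0.00571) and a mean of 308 ± 20.1 FPKM in HFrD mice and 460 ± 41.4 FPKM in ND mice (SD, n = 4 in each group). Hc (chr2:34983331-35061438), which encodes C5 in mice, measured 335, 243, 252 and 297 FPKM in HFrD mice, against 387, 416, 347 and 355 FPKM in ND mice. Its groups did not overlap, but HFrD mouse 1 lay close to ND mouse 6 (log2 fold change -0.43, SE 0.12, adjusted p = 0.0481), and leaving out a mouse ended the call in 7 of 8 fits, all but that without HFrD mouse 1 (largest adjusted p 0.122, without ND mouse 3). C6, the next protein to join the complex, measured 170, 146, 121 and 170 FPKM in HFrD mice, against 192, 230, 204 and 188 FPKM in ND mice. Its groups did not overlap either, at a log2 fold change of -0.43 (SE 0.12) and an adjusted p of 0.0550. In the deposited table the locus of C6 is shared with Plcxd3. C7, which joins after C6 and is not a member, was below the level filter and not tested, but was higher in every HFrD mouse, with 0.921, 0.490, 0.390 and 0.446 FPKM in HFrD mice and 0.104, 0.158, 0.362 and 0.311 FPKM in ND mice.

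C8 is made of 3 chains from 3 genes, of which C8b fell and C8a and C8g did not pass the test, though differences between the 3 were not tested. C8b (chr4:104766317-104804548) measured 232, 137, 132 and 190 FPKM in HFrD mice, against 249, 317, 302 and 295 FPKM in ND mice. It had the steepest fall in complement (log2 fold change -0.78, SE 0.17, limma adjusted p = 0.0218), although HFrD mouse 1 came near ND mouse 1, and 4 of 8 fits without 1 mouse lost the call (HFrD mice 2 and 5 and ND mice 3 and 6, largest adjusted p 0.0658, without ND mouse 3). C8a, whose gene lies 11130 bases away on the other strand, measured 377, 180, 172 and 274 FPKM in HFrD mice, against 345, 325, 347 and 301 FPKM in ND mice. Here HFrD mouse 1 was above every ND mouse while the other HFrD mice were below them all, and the gene did not pass (-0.47, SE 0.22, adjusted p = 0.221). C8g had 159 to 209 FPKM in HFrD mice and 160 to 195 FPKM in ND mice (0.01, SE 0.11, adjusted p = 0.964). In the deposited table C8g shares its locus with Fbxw5, and C8a with Gm17662. The ratio of C8g to C8b was 0.825 to 1.53 in HFrD mice and 0.557 to 0.662 in ND mice, whereas that of C8a to C8b overlapped (1.30 to 1.63 in HFrD mice, 1.02 to 1.39 in ND mice). The study lists C8b among genes lower both in HFrD mice, from these libraries, and in leptin receptor-deficient (db/db) mice. The call of C8b is thus not independent of that choice.

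**Figure D2:**
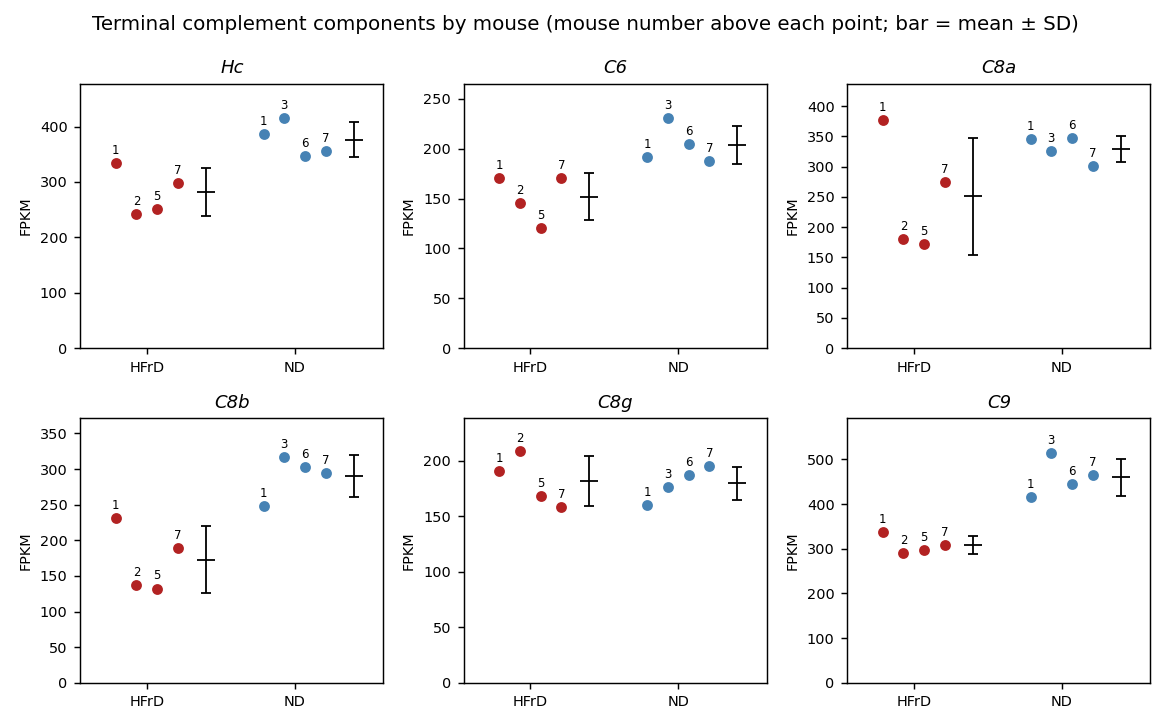
Terminal complement components by mouse (y axis, FPKM; points, single mice with their number; bars, mean ± SD of 4 mice). C9 and C8b of HFrD mice lie below all ND mice, HFrD mouse 1 is at 377 FPKM for C8a, above the ND mice, and C8g overlaps.

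The soluble regulators of complement had higher means in HFrD mice, and none passed the test. Serping1, the C1 inhibitor that blocks C1, the lectin proteases, factor XII and kallikrein, measured 287, 211, 237 and 322 FPKM in HFrD mice, against 201, 198, 190 and 194 FPKM in ND mice. All HFrD mice were above all ND mice, with HFrD mice 1 and 7 highest (log2 fold change 0.41, SE 0.12, limma adjusted p = 0.0671). C4bp, which helps to break down C4b protein, also did not overlap, at 255 to 286 FPKM in HFrD mice and 230 to 251 FPKM in ND mice (0.16, SE 0.07, adjusted p = 0.206). Cfi, the protease that cuts C3b and C4b proteins, gave 379, 314, 302 and 360 FPKM in HFrD mice, compared with 330, 329, 362 and 307 FPKM in ND mice (0.02, SE 0.10, adjusted p = 0.907). C3ar1, the receptor of C3a on myeloid cells, was low, at 1.32, 0.811, 0.927 and 0.769 FPKM in HFrD mice and 0.954, 1.57, 0.634 and 0.786 FPKM in ND mice (-0.01, SE 0.17, adjusted p = 0.982). Cfi and C3ar1 overlapped between the diets.

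Among the contact system genes, F11 and Klkb1 fell and F12 rose. F11 (chr8:45241174-45262031), which encodes the factor XI zymogen that activates factor IX, measured 37.7, 35.9, 29.6 and 31.7 FPKM in HFrD mice, against 54.6, 65.4, 59.6 and 57.2 FPKM in ND mice. The groups were far apart, the mean being 33.7 ± 3.75 FPKM in HFrD mice and 59.2 ± 4.62 FPKM in ND mice (SD, n = 4 in each group), and the log2 fold change of -0.80 (SE 0.10, limma adjusted p = 0.00191) was the steepest fall of all members. F11 is also a gene that the study lists as lower both in HFrD mice, from these libraries, and in db/db mice. Klkb1 (chr8:45269671-45308466), which encodes plasma prekallikrein and lies 7639 bases from F11, measured 111, 86.8, 74.5 and 86.8 FPKM in HFrD mice, against 139, 116, 146 and 120 FPKM in ND mice. HFrD mouse 1 and ND mouse 3 were close, but the groups did not overlap (-0.54, SE 0.13, adjusted p = 0.0278). In 5 of 8 fits without 1 mouse Klkb1 lost the call (HFrD mice 2, 5 and 7 and ND mice 1 and 6, largest adjusted p 0.0802, without ND mouse 1), and an exon of Klkb1 overlaps Cyp4v3 on the same strand, so that its reads may be shared.

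F12 (chr13:55417958-55426793), which encodes factor XII, the first zymogen of the contact system, measured 123, 129, 123 and 133 FPKM in HFrD mice, against 95.8, 96.5, 105 and 102 FPKM in ND mice. Both groups were tight and apart, with a log2 fold change of 0.34 (SE 0.07, limma adjusted p = 0.0181), and 4 of 8 fits without 1 mouse lost the call (HFrD mice 2 and 7 and ND mice 1 and 3, largest adjusted p 0.0578, without ND mouse 1). The ratio of F11 to F12 within a mouse was 0.238 to 0.306 in HFrD mice and 0.558 to 0.678 in ND mice. Kng1, the kininogen gene whose product carries kallikrein and factor XI, measured 1236, 950, 914 and 1093 FPKM in HFrD mice and 1066, 928, 1079 and 951 FPKM in ND mice (0.05, SE 0.11, adjusted p = 0.817). Its paralog Kng2 had 140 to 196 FPKM in HFrD mice and 137 to 157 FPKM in ND mice (0.13, SE 0.11, adjusted p = 0.511). The 2 kininogen genes overlapped between the diets, and reads may be divided between them.

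**Figure D3:**
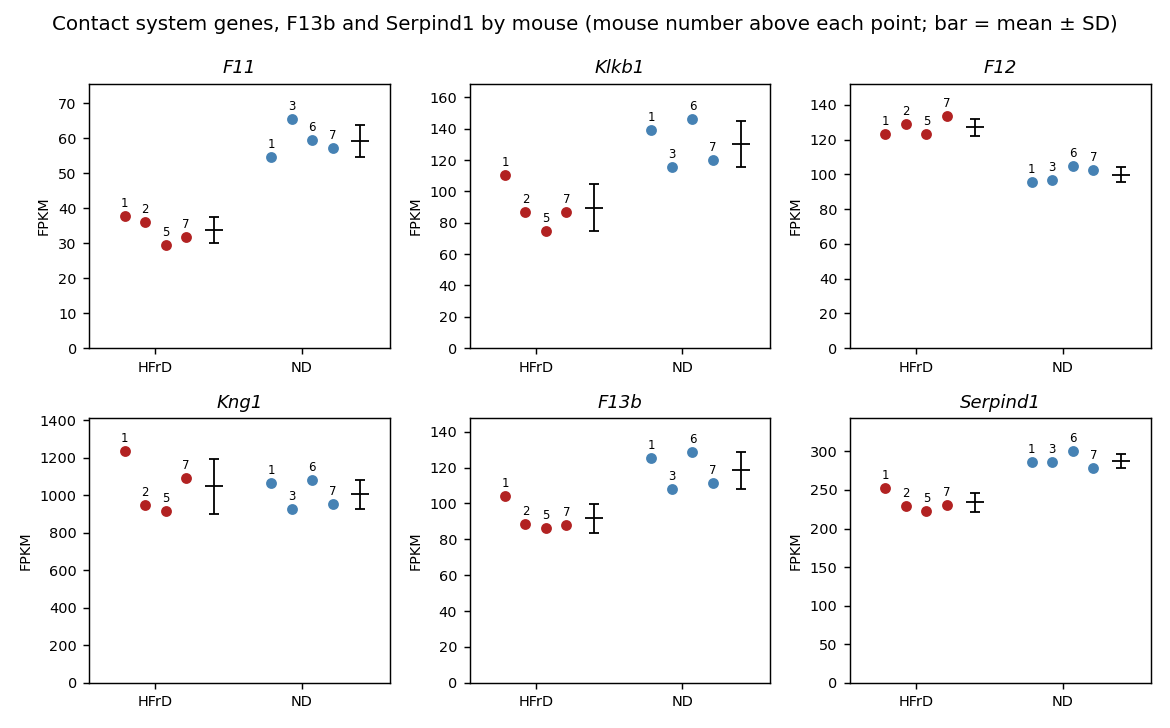
Contact system genes, F13b and Serpind1 by mouse (y axis, FPKM; points, single mice with their number; bars, mean ± SD of 4 mice). F11 lies at 29.6 to 37.7 FPKM in HFrD mice and 54.6 to 65.4 FPKM in ND mice, F12 is higher in all HFrD mice, and Kng1 overlaps.

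None of the 4 vitamin K-dependent zymogens passed the test, although F2 passed with quantile normalization, as given below. F2, which encodes prothrombin, had the highest level of them, with 567, 565, 566 and 606 FPKM in HFrD mice, compared with 521, 504, 553 and 556 FPKM in ND mice (log2 fold change 0.11, SE 0.08, limma adjusted p = 0.400). F10, which encodes factor X, measured 158, 152, 167 and 176 FPKM in HFrD mice, against 141, 136, 147 and 131 FPKM in ND mice (0.23, SE 0.08, adjusted p = 0.0938). F9, which encodes factor IX, measured 91.3, 91.0, 86.8 and 88.1 FPKM in HFrD mice, against 98.2, 107, 103 and 97.5 FPKM in ND mice (-0.18, SE 0.07, adjusted p = 0.137). These 3 genes did not overlap between diets, as was also the case for 16.6% of all genes tested. F2 and F10 were higher and F9 lower in every HFrD mouse. The HFrD means of these genes differed from the ND means by 7.94% (F2), 17.8% (F10) and -11.9% (F9). F7 overlapped, with 36.0 to 47.0 FPKM in HFrD mice and 33.4 to 41.7 FPKM in ND mice (0.15, SE 0.11, adjusted p = 0.440).

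Of the cofactors and their carrier, F5, which encodes factor V, gave 142, 120, 115 and 137 FPKM in HFrD mice, compared with 154, 146, 154 and 131 FPKM in ND mice (log2 fold change -0.19, SE 0.09, limma adjusted p = 0.252). F8 and Vwf, which encode factor VIII and the von Willebrand factor that carries it and are both known as endothelial products, were low. F8 had 8.13 to 11.0 FPKM in HFrD mice and 7.22 to 10.1 FPKM in ND mice (0.09, SE 0.12, adjusted p = 0.713). Vwf had 1.63 to 3.50 FPKM in HFrD mice and 1.67 to 2.71 FPKM in ND mice (0.12, SE 0.20, adjusted p = 0.737). All 3 genes overlapped between diets. In the deposited table F5 shares its locus with Selp, and F8 with Fundc2.

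The 3 fibrinogen chains, encoded side by side on chromosome 3, were the most abundant members and had higher means in HFrD mice without passing the test. Fga, of the Aα chain, measured 2233, 1519, 1598 and 2492 FPKM in HFrD mice, against 1398, 1469, 1448 and 1213 FPKM in ND mice (log2 fold change 0.48, SE 0.16, limma adjusted p = 0.0994). Fgb, of the Bβ chain, measured 3899, 2656, 2524 and 3869 FPKM in HFrD mice, against 2376, 2433, 2556 and 2139 FPKM in ND mice (0.42, SE 0.16, adjusted p = 0.131). Fgg, of the γ chain, measured 3038, 2085, 2159 and 3210 FPKM in HFrD mice, against 1833, 1914, 1939 and 1656 FPKM in ND mice (0.49, SE 0.15, adjusted p = 0.0742). In all 3 genes HFrD mice 1 and 7 were far above the ND mice, while HFrD mice 2 and 5 were near them, below ND mouse 6 only for Fgb in HFrD mouse 5. The proportion between the chains was close to constant: the ratio of Fga to Fgb was 0.572 to 0.644 in HFrD mice and 0.567 to 0.604 in ND mice, and that of Fgg to Fgb 0.779 to 0.856 in HFrD mice and 0.759 to 0.787 in ND mice.

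**Figure D4:**
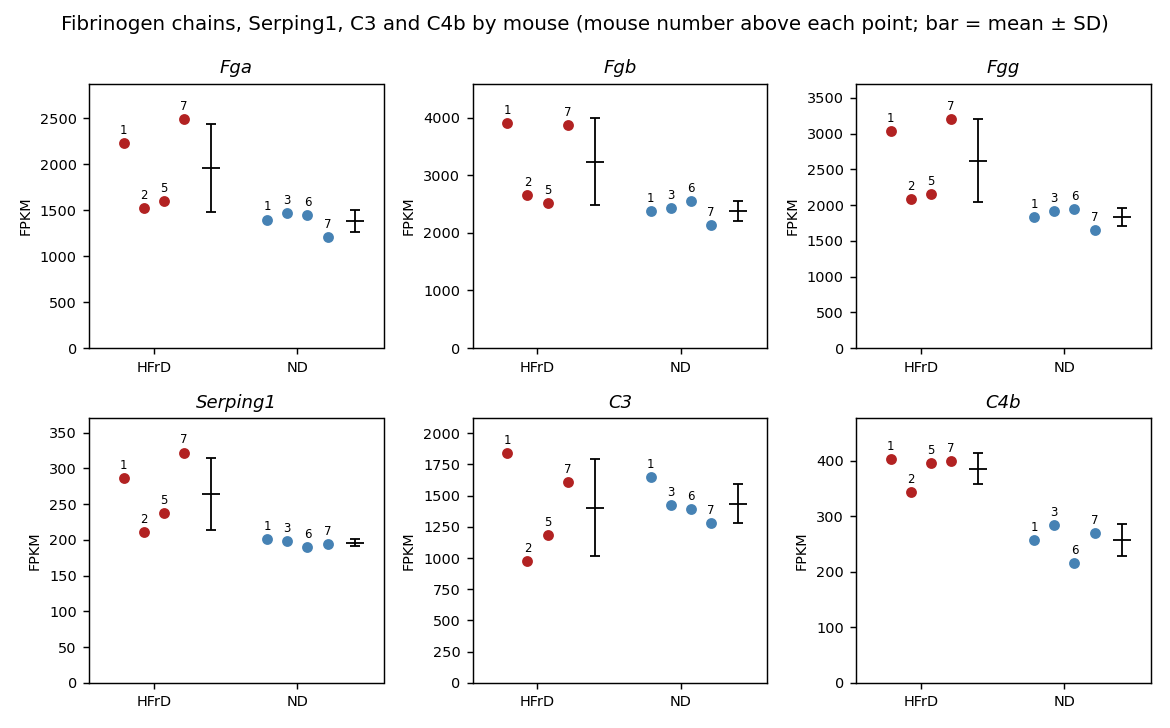
Fibrinogen chains, Serping1, C3 and C4b by mouse (y axis, FPKM; points, single mice with their number; bars, mean ± SD of 4 mice). HFrD mice 1 and 7 are the highest of the HFrD mice for the fibrinogen chains, Serping1 and C3, while for C4b HFrD mouse 2, at 344 FPKM, stands below the other HFrD mice.

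F13b (chr1:139501702-139523752), which encodes the carrier subunit of the factor XIII that crosslinks fibrin, fell while the fibrinogen means were higher. It measured 104, 88.5, 86.5 and 88.0 FPKM in HFrD mice, against 125, 108, 129 and 112 FPKM in ND mice. HFrD mouse 1 was within a few FPKM of ND mouse 3 and the groups did not overlap (log2 fold change -0.37, SE 0.09, limma adjusted p = 0.0369), but 6 of 8 fits without 1 mouse lost the call, all but those without HFrD mouse 1 or ND mouse 7 (largest adjusted p 0.102).

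The anticoagulants held 1 changed gene of 7, Serpind1 (chr16:17331371-17343575), which encodes heparin cofactor II, a thrombin inhibitor. It measured 252, 229, 223 and 231 FPKM in HFrD mice, against 286, 286, 301 and 279 FPKM in ND mice. The groups were apart (log2 fold change -0.30, SE 0.07, limma adjusted p = 0.0334), and the same 6 of 8 fits lost the call (largest adjusted p 0.0883). Serpind1 shares its locus in the deposited table with Pi4ka, Snap29 and Tmem191c. Serpinc1, which encodes antithrombin, the main thrombin inhibitor, gave 728, 752, 732 and 726 FPKM in HFrD mice, compared with 718, 659, 734 and 719 FPKM in ND mice (0.05, SE 0.08, adjusted p = 0.698). Tfpi, which encodes the inhibitor of tissue factor and factor VII, was low and did not overlap, with 4.01, 3.75, 3.90 and 3.38 FPKM in HFrD mice and 3.04, 2.40, 3.37 and 2.73 FPKM in ND mice (0.30, SE 0.11, adjusted p = 0.135). HFrD mouse 7 and ND mouse 6 were almost equal in Tfpi.

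Thbd, which encodes thrombomodulin on endothelial cells, had 0.927 to 2.14 FPKM in HFrD mice and 0.886 to 1.34 FPKM in ND mice (log2 fold change 0.22, SE 0.17, limma adjusted p = 0.459). Pros1, of protein S, had 25.4 to 31.2 FPKM in HFrD mice and 27.0 to 30.4 FPKM in ND mice (-0.02, SE 0.09, adjusted p = 0.906). Proz, of protein Z, a cofactor for the inhibition of factor X, had 104 to 132 FPKM in HFrD mice and 127 to 132 FPKM in ND mice (-0.20, SE 0.09, adjusted p = 0.197). These 3 genes overlapped between diets. Proz lies next to F10, and the ratio of F10 to Proz did not overlap, being 1.19 to 1.62 in HFrD mice and 1.00 to 1.15 in ND mice. Proc, of protein C, cannot be read in these data: it was listed at 10.5, 0.0338, 36.0 and 12.7 FPKM in HFrD mice and 16.3, 0.160, 29.1 and 12 FPKM in ND mice (-0.10, SE 1.17, adjusted p = 0.971). HFrD mouse 2 and ND mouse 3 were near 0 for Proc, and the other mice of each group ranged widely.

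None of the 5 genes of plasminogen and its regulators passed the test. Vtn, which encodes vitronectin, a plasma protein that also stabilises the inhibitor of plasminogen activators, gave 1012, 835, 859 and 1016 FPKM in HFrD mice, compared with 819, 791, 829 and 798 FPKM in ND mice (log2 fold change 0.20, SE 0.09, limma adjusted p = 0.224). Its groups did not overlap, and HFrD mice 1 and 7 were again the highest. Plg, of plasminogen, had 679 to 837 FPKM in HFrD mice and 747 to 777 FPKM in ND mice (-0.01, SE 0.09, adjusted p = 0.950). Serpinf2, of the plasmin inhibitor, had 251 to 333 FPKM in HFrD mice and 305 to 336 FPKM in ND mice (-0.16, SE 0.10, adjusted p = 0.339). Plg and Serpinf2 overlapped between diets. Cpb2, whose product slows fibrinolysis, had 217 to 298 FPKM in HFrD mice and 230 to 247 FPKM in ND mice (0.12, SE 0.10, adjusted p = 0.488). Hrg, of the histidine-rich glycoprotein that binds plasminogen and heparin, had 398 to 516 FPKM in HFrD mice and 470 to 526 FPKM in ND mice (-0.16, SE 0.10, adjusted p = 0.327), and these genes overlapped as well. Exons of Plg, Masp2 and Serpinc1 overlap genes on the opposite strand (Slc22a3, Tardbp and Zbtb37), and whether strand was used in counting is not given in the sources used here, so that their values are uncertain.

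Across the 48 members, the groups of 21 did not overlap, against 16.6% of all genes tested. Of these members 11 were higher in HFrD mice (9.60% of all genes) and 10 lower (7.01% of all genes). HFrD mice 1 and 7 held the highest HFrD values in 28 of the 48 members (58.3%), against 26.5% of all genes, and this held for 14 of 20 complement and 14 of 28 coagulation genes. HFrD mouse 1 alone was highest of the HFrD mice in 29 members (60.4%), against 38.8% of all genes. Summed over the list, coagulation and fibrinolysis genes took 3.32%, 2.58%, 2.58% and 3.30% of all FPKM in HFrD mice and 2.44%, 2.36%, 2.47% and 2.30% in ND mice. Fibrinogen and F13b together took 1.34% to 1.97% in HFrD mice and 1.05% to 1.20% in ND mice. Complement genes took 1.22%, 0.878%, 0.916% and 1.10% in HFrD mice and 1.10%, 1.06%, 1.03% and 1.03% in ND mice, so that HFrD mice 2 and 5 were below and HFrD mouse 1 above all ND mice. The terminal components together took 0.239% to 0.339% in HFrD mice and 0.354% to 0.391% in ND mice, with no overlap.

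**Figure D5:**
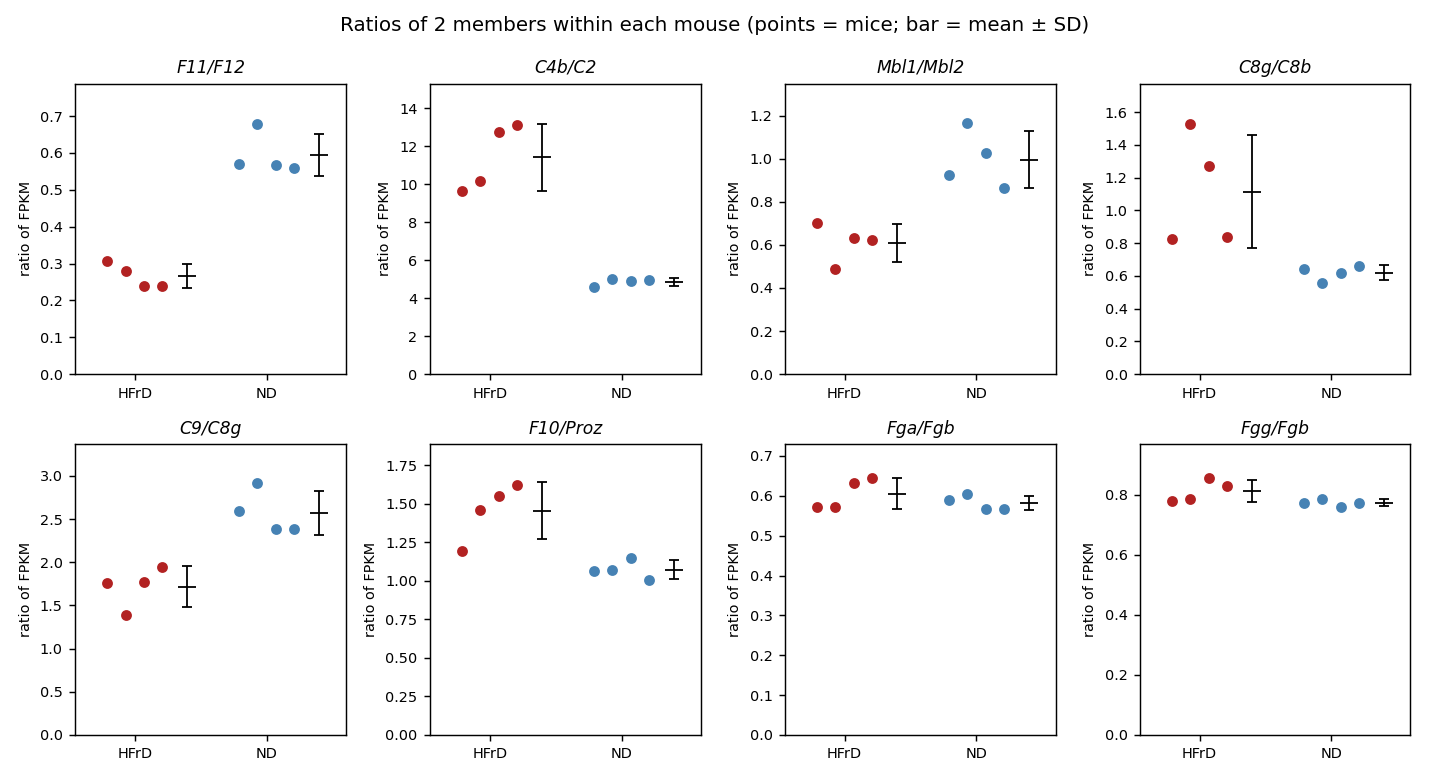
Ratios of 2 members' FPKM within each mouse (y axis, ratio; points, single mice; bars, mean ± SD of 4 mice). The ratios of F11 to F12, C4b to C2, Mbl1 to Mbl2, C8g to C8b, C9 to C8g and F10 to Proz do not overlap between HFrD and ND mice, whereas Fga to Fgb and Fgg to Fgb do.

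Of 55 further genes of the 2 pathways, 39 were above the level filter. Of these 39, 8 were higher in HFrD mice by the same test, against 5.44% of all genes tested. The C1q chains, which start the classical pathway and are made by macrophages, all rose (C1qa by 0.98, C1qb by 0.93 and C1qc by 1.55 on the log2 scale) and kept the call in all 8 fits without 1 mouse. Itgb2, a chain of the complement receptors CR3 and CR4, was higher by 0.70 (limma adjusted p = 0.0217) but lost the call without HFrD mouse 7 or ND mice 1 or 6 (largest adjusted p 0.0616, without HFrD mouse 7). Vsig4, a macrophage receptor for C3 fragments, was higher by 0.85 (adjusted p = 0.0457), with HFrD mouse 2 (15.7 FPKM) below ND mouse 3 (17.5 FPKM), and kept the call only without HFrD mouse 2 or ND mouse 3 (largest adjusted p 0.115, without HFrD mouse 5). C1qa, C1qb, C1qc and Vsig4 are also among the Kupffer cell markers above, so these lists are not separate evidence, and the part of Kupffer cells in these results was not tested. Of liver products, Cpn1, a subunit of the carboxypeptidase that inactivates the anaphylatoxins, rose by 0.44 and Hgfac, a protease related to factor XII, by 0.76, and both kept the call in all 8 fits. Hgfac, like C8b and F11, is a gene that the study lists from these libraries and db/db mice, here as higher in HFrD but lower in db/db mice. The call of Hgfac is thus not independent of that choice. Fgl1, a fibrinogen-related protein, was higher by 1.08 (adjusted p = 0.0478), but kept the call only without HFrD mouse 2 (largest adjusted p 0.117, without HFrD mouse 7). Fgl1 measured 678, 255, 515 and 694 FPKM in HFrD mice, against 237, 281, 265 and 172 FPKM in ND mice, so that HFrD mouse 2 fell within the ND range.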

How the data were processed

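RNA-Seq of 8 mouse livers, 4 HFrD and 4 ND, was analysed from the mRNA table of FPKM values that the authors deposited, with 1 value per gene and library and no pooling. The authors trimmed reads with Cutadapt 1.9.3 and aligned them with HISAT2 2.0.4 to mm10, and the submitters' processing notes name Cufflinks and Cuffdiff without versions. The labels give a TruSeq stranded kit and the methods NEBNext Ultra II Directional libraries. Since FPKM are relative to the fragments in a library and to transcript length, no count test was run and no counting interval is given. Fold changes and p-values of the authors' own comparisons in the deposited table, and the m6A data, were not used.

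The 11476 genes whose mean reached 0.5 FPKM were kept, the values were taken as log2(FPKM + 1), and HFrD was compared with ND in limma 3.58.1 (R 4.3.3) by eBayes with a trend, with Benjamini-Hochberg adjustment over all these genes and a threshold of 0.05. A fold change on this scale understates that of low genes. Single members were also compared by exact two-sided permutation over the 70 divisions of the 8 mice, whose smallest p is 0.0286, the value of every member whose groups did not overlap. Positions are those of GENCODE M21 on GRCm38, the assembly called mm10, and promoters are from RefSeq (38 of 49 members matched by symbol). Plots were made with matplotlib 3.10.9 and tables with pandas 2.3.3 in Python 3.11.15. The procedure was tested on simulated data.

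The members, the lists of other pathway genes and the cell type markers were chosen with earlier results of these data known. Full values are given for changed members, for those with an unadjusted p under 0.05 and for the most abundant of each role group, and the others by range, except that all values of C8a, Cfd, Proc and C5ar1 among the members, and of C7 beside them, are given, a choice made after they were seen. Other pathway genes are named where they changed, except for a result that is not reported here. Other pseudocounts, filters, scalings, variance models, library weights, a block by mouse number and leaving out each mouse were tried.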

Additional observations from a re-analysis of the deposited data

Results flagged for a closer look

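Of 98 groups of 4 mice (49 members, 2 diets), 8 had a mouse standing apart from the other 3, with a gap to its nearest neighbour larger than Dixon's critical share of the group's range, and chance gives about 1 in 20 groups. In HFrD mouse 1, Masp1 (51.0 FPKM), F13b (104 FPKM) and Proz (132 FPKM) stood above the other HFrD mice, toward the ND level. In HFrD mouse 2, C4b (344 FPKM) stood below and Cfd (12.1 FPKM) above the other HFrD mice. In HFrD mouse 7, F2 stood above the others at 606 FPKM. Among ND mice, Cfp was lowest in mouse 6 (4.53 FPKM) and Plg highest in mouse 1 (777 FPKM).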

How the results depend on the processing

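The directions of the 11 changed members were kept under each alternative run, and F11, C9, C4b and C2 kept their calls under each one except the block by mouse number. Hc lost its call with no filter, quantile normalization or no variance trend, Cfp and Klkb1 with no filter, and F13b and Serpind1 with no trend. With quantile normalization 8 coagulation genes passed. Among them were F2 (log2 fold change 0.32, limma adjusted p = 0.0274), Fga (0.53, adjusted p = 0.0406) and Vtn (0.33, adjusted p = 0.0271), which had not passed above. C6 passed with quantile normalization (limma adjusted p = 0.0449), equal medians (0.0287) and library weights (0.0384). Without the variance trend 3 coagulation genes passed. Leaving out 1 mouse gave 538 to 1296 changed genes against 1047, with 3 to 8 complement genes and 1 to 6 coagulation genes. Counts fell by over 1.5 times without HFrD mice 2 (605 genes), 5 (554) or 7 (587) or ND mice 1 (538), 3 (570) or 6 (651), the cause of which was not tested beyond there being fewer samples. Without HFrD mouse 1 and ND mouse 7 together, an alternative chosen after seeing the data, the complement median was -0.16, with 9 complement and 5 coagulation genes called. The diets share only mouse numbers 1 and 7, and nothing in the labels pairs them. The correlation of deviations from the group means was 0.08 for the mice numbered 1 and -0.01 for those numbered 7. With mouse number as a replicate block 2 genes passed, 0 of complement and 0 of coagulation, and the complement median was 0.11. That fit draws the diet difference only from the mice numbered 1 and 7, since every other number occurs in a single mouse. With so few mice in it, its loss of calls cannot show whether the calls hold.

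Reversals concerned genes that did not pass the test. With the replicate block, and thus from the mice numbered 1 and 7 only, log2 fold changes became 0.25 (C3), 0.099 (Cfb), -0.023 (C8g), 0.12 (C3ar1), -0.11 (F7), 0.063 (Pros1) and 0.083 (Plg). With quantile normalization they became 0.052 (C3), -0.0060 (C8g) and 0.090 (Plg), with equal medians -0.013 (C8g) and -0.00011 (Cfi), and with a pseudocount of 0.1 0.0031 (C3ar1). Without HFrD mouse 1 and ND mouse 7 they became -0.068 (Cfi) and -0.057 (Kng1). Leaving out 1 mouse gave -0.21 to 0.089 (C3), -0.17 to 1.06 (Cfd), -0.059 to 0.073 (C8g), -0.032 to 0.077 (Cfi), -0.095 to 0.12 (C3ar1), -0.015 to 0.24 (Vwf), -0.031 to 0.11 (Kng1), -1.10 to 0.93 (Proc), -0.069 to 0.027 (Pros1) and -0.065 to 0.035 (Plg). FPKM keep no counts, so the precision of low genes such as C3ar1, Vwf and Thbd does not draw on read counts here. It is set by the spread between mice, which the eBayes trend moderates toward that of genes of like level.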
